A study of Mus musculus with 4 samples.

Results

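Expression of 10 genes of insulin receptor signalling, *Insr*, *Irs1*, *Irs2*, *Pik3r1*, *Pik3ca*, *Akt1*, *Akt2*, *Foxo1*, *Tbc1d4* and *Pde3b*, was examined in brown and white fat of wild-type (WT) and ASK1-deficient mice. The genes were taken by name, and every probe whose gene name in the scanner output was one of them was used, which gave 19 of the 55681 probes and 10 of the 22066 genes that the RefSeq gene table named. ASK1, encoded by *Map3k5*, is a stress-responsive kinase at the top of a MAP kinase cascade. The study asked what ASK1 does in adipose tissue. The 4 one-colour arrays held interscapular brown adipose tissue (iBAT) of WT mice, iBAT of ASK1-deficient mice (ASK1KO), epididymal white adipose tissue (eWAT) of WT mice and eWAT of ASK1KO mice, 1 array each. Each array carried a mixture of total RNA from 3 male C57BL/6J mice aged 10 weeks, and no treatment was named for any of them. The ASK1KO mice lacked ASK1 in the whole body and not only in fat, and the WT mice were bred separately from them, so that genotype and breeding line cannot be told apart. With 1 pool per genotype and tissue there was no replicate within any group.

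Insulin binds a receptor tyrosine kinase that phosphorylates docking proteins of the IRS family. These recruit PI 3-kinase, whose lipid product brings AKT kinases to the membrane, and active AKT in turn acts on FOXO1, which is kept out of the nucleus, on TBC1D4 (AS160), which otherwise holds back the movement of GLUT4 to the cell surface, and on phosphodiesterase 3B, which degrades cAMP and so restrains lipolysis. In adipocytes the pathway drives glucose uptake, lipid synthesis and the suppression of lipolysis, and in brown fat it opposes the cAMP signal that noradrenaline raises. All of these steps are set largely by phosphorylation, and the arrays measured only the messages.

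The probes are 60 bases long. The 5 printed here are those lying in coding sequence for *Irs2* and *Foxo1*, the genes with the highest ratio of ASK1KO to WT in eWAT, and for *Akt2*, *Pik3ca* and *Tbc1d4*. They are the sequences of the array design, given 5′ to 3′ on the strand of the message with no base in capitals, and the positions are those of the mm9 build: *Irs2* at chr8:11004490-11004549, minus strand, *Akt2* at chr7:28418226-28418285, plus strand, *Pik3ca* at chr3:32360630-32360689, plus strand, *Foxo1* at chr3:52150183-52150242, plus strand, and *Tbc1d4* at chr14:101878355-101878414, minus strand.
Irs2: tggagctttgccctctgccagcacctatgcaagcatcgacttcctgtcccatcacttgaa
Akt2: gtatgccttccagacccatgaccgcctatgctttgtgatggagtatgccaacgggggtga
Pik3ca: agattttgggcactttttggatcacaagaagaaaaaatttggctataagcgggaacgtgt
Foxo1: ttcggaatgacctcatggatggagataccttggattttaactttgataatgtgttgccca
Tbc1d4: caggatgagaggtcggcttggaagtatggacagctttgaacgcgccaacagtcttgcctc

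Values are the processed signals of the scanner software and, for comparison between arrays, scaled log2 levels, which are the log2 signal minus the log2 of that array's 75th percentile. That percentile was 356 and 371 on the WT and ASK1KO iBAT arrays and 673 and 634 on the WT and ASK1KO eWAT arrays, so that raw signals of the 2 tissues are not on one scale. No level is compared between genes, because each probe has its own brightness. The only error that the arrays gave was that between repeated spots of 1 probe, for which the median SD of the log2 ratio of 2 arrays lay between 0.0599 and 0.0869; it does not cover the spread between mice. Of 2 *Map3k5* probes, 1 read 448 in WT and 117 in ASK1KO iBAT and 701 in WT and 194 in ASK1KO eWAT (log2 ratios of -2.00 and -1.76), and the other read 1081 and 1082 in iBAT and 1264 and 836 in eWAT (log2 ratios of -0.06 and -0.51). Where these probes lie relative to the deleted part was not given in the sources used here. Adipocyte markers were measured on all arrays (9 of 9, with sums of levels, each relative to its array's 75th percentile, from 2453 to 2552), and brown adipocyte markers summed to 3961 and 3316 in WT and ASK1KO iBAT and to 53.1 and 20.8 in WT and ASK1KO eWAT.

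All 19 probes were well above background on all 4 arrays, so every one of the 10 genes was measured everywhere. *Irs2* had the widest range over the 4 arrays, 1.95 on the log2 scale, followed by *Pik3r1* with 1.29, *Irs1* with 0.99 and *Akt2* with 0.79. The other 6 genes ranged over 0.19 to 0.58, and *Akt1* was the most even. The highest *Irs2* level was that of WT iBAT and the lowest that of WT eWAT.

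**Figure D1:**
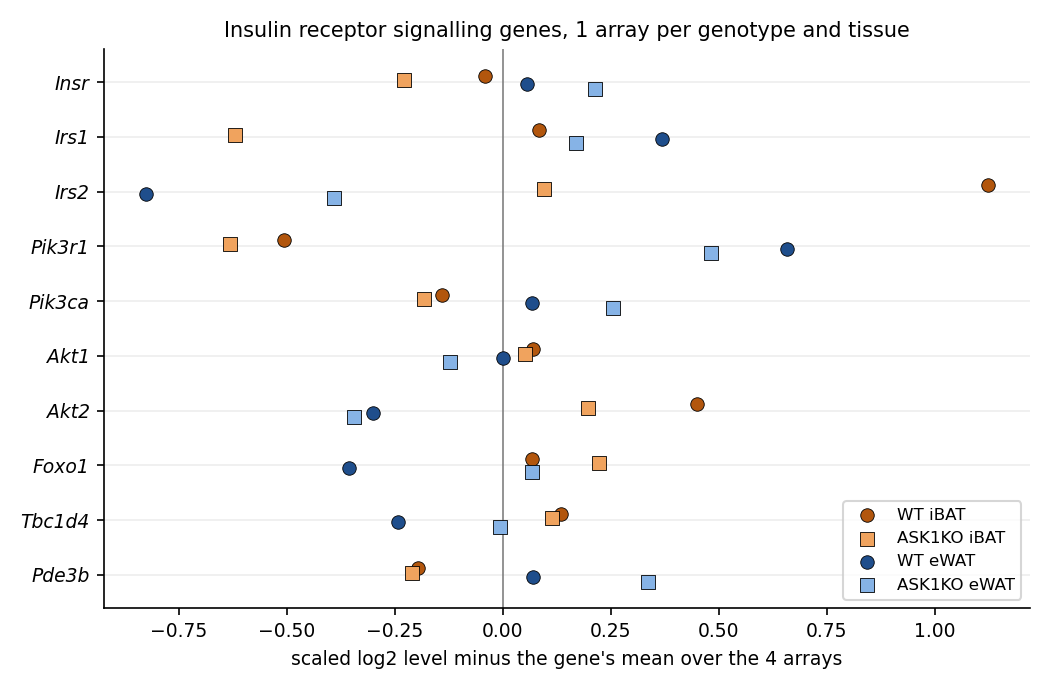
Scaled log2 level of each of the 10 genes on the 4 arrays, with the gene's mean over the arrays subtracted (x axis, log2 units); circles are WT, squares ASK1KO, brown iBAT and blue eWAT, and each point is 1 array of pooled RNA. The *Irs2* points span 1.95, from WT eWAT to WT iBAT, and those of *Akt1* span 0.19.

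In iBAT, the messages of both main IRS docking proteins were lower on the ASK1KO array than on the WT array, *Irs2* by 2.04-fold and *Irs1* by 1.63-fold. The remaining 8 genes, from the receptor to the targets of AKT, lay between log2 ratios of -0.25 and 0.16. In eWAT no gene of the 10 reached 2-fold: *Irs2* and *Foxo1* had the highest ratios, 1.35-fold and 1.34-fold above WT, and *Irs1* the lowest, 1.15-fold below it. Each of these is a ratio of 1 array to another, with no test.

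The receptor gene *Insr* was read by 3 probes. The brightest of them gave 481 in WT and 435 in ASK1KO iBAT and 1028 in WT and 1196 in ASK1KO eWAT. The other 2 gave 198 and 184, and 289 and 263, in WT and ASK1KO iBAT, and 400 and 372, and 555 and 593, in WT and ASK1KO eWAT. In iBAT the 3 probes lay close together and below 0, with log2 ratios of ASK1KO to WT between -0.21 and -0.16 and a mean of -0.19. In eWAT they spread from -0.02 to 0.31 around a mean of 0.16.

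*Irs2*, a docking protein whose gene is known in liver as a target that insulin represses, was read by 1 probe. Its signal was 12067 in WT iBAT, 6174 in ASK1KO iBAT, 5916 in WT eWAT and 7522 in ASK1KO eWAT, that is, scaled log2 levels of 5.08, 4.06, 3.14 and 3.57. The log2 ratio of ASK1KO to WT in iBAT, -1.03, was the lowest of the 10 genes, and 0.925% of all genes measured in iBAT had a lower one. In eWAT the sign was the other way, 0.43, with 96.9% of genes lower. The ratio in iBAT remained negative under the 6 alternative settings that could change it, from -1.11 to -0.90, and was under 2-fold with quantile normalization, without scaling and with the percentile taken over detected probes; the ratio in eWAT remained positive, from 0.35 to 0.46. The difference of the 2 ratios was 1.46 on the log2 scale, and with 4 arrays no degree of freedom was left to test it.

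*Irs1*, the other docking protein of the insulin receptor in fat, was read by 2 probes. The first gave 3222 in WT iBAT, 2203 in ASK1KO iBAT, 8032 in WT eWAT and 7081 in ASK1KO eWAT, and the second, much dimmer, gave 205, 123, 437 and 333. Both probes were lower in ASK1KO in both tissues. Their log2 ratios were -0.61 and -0.80 in iBAT (mean -0.70, with 2.62% of genes lower) and -0.09 and -0.30 in eWAT (mean -0.20). Under the alternatives the iBAT mean ranged from -0.79 to -0.55 and the eWAT mean from -0.29 to -0.09.

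Because *Irs1* and *Irs2* had the 2 lowest ratios in iBAT, the 250 bases before the start of each gene were read from RefSeq promoters of GRCm38.p6, which held 8 of the 10 genes. Both windows hold an E-box, CACGTG, the same on both strands and printed in capitals, whose first base lies 115 bases before the start in *Irs1* (chr1:82291440-82291689, minus strand) and 44 bases before it in *Irs2* (chr8:11008930-11009179, minus strand).
Irs1: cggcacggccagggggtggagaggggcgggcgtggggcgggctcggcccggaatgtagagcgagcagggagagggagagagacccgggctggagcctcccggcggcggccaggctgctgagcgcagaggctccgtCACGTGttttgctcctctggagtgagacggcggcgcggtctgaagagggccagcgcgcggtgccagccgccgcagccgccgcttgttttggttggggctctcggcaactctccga
Irs2: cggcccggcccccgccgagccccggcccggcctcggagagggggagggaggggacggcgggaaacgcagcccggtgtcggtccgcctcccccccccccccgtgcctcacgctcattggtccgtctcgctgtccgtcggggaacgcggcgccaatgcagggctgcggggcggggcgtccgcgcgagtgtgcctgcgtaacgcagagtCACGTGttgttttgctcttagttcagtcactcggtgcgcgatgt
The E-box was found in the windows of these 2 genes among the 8, and in 6.86% of the 27025 genes with windows of the same length, some of which hold several. Both genes were looked at after their ratios had been seen, and a match of letters is a description and not a binding site. Other motifs searched on both strands were the cAMP response element TGACGTCA, in 0 of the 8 genes and 1.77% of all genes; the shorter site TGACG or CGTCA, in *Irs1*, *Akt2* and *Pik3r1* and 19.8% of all genes; and the forkhead site TGTTTAC or GTAAACA, in *Akt1* and 3.54% of all genes. The CGTCA of *Irs1* shares bases with its E-box.

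Of PI 3-kinase, *Pik3r1*, which encodes the p85α regulatory subunit, read 846 in WT and 809 in ASK1KO iBAT and 3587 in WT and 2989 in ASK1KO eWAT (log2 ratios of -0.13 and -0.18). *Pik3ca*, encoding the catalytic subunit p110α, read 271 and 275 in WT and ASK1KO iBAT and 593 and 636 in WT and ASK1KO eWAT (-0.04 and 0.19). Its sign in iBAT turned in 2 alternatives.

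Of the AKT kinases, *Akt1* read 7870 in WT and 8102 in ASK1KO iBAT and 14187 in WT and 12275 in ASK1KO eWAT. Its log2 ratios of ASK1KO to WT were -0.02 and -0.12, and its range over the 4 arrays, 0.19, was the narrowest of the 10 genes. The sign in iBAT turned in 4 alternatives. *Akt2*, the isoform most tied to glucose uptake, was read by 4 probes. In coding sequence, the probe printed above gave 2525 in WT iBAT, 2041 in ASK1KO iBAT, 2393 in WT eWAT and 2242 in ASK1KO eWAT. The 2 brightest probes, which share 53 bases and are thus nearly 1 measurement, gave 39173 and 41406 in WT iBAT and 31699 and 34242 in ASK1KO iBAT. These 3 probes had log2 ratios in iBAT from -0.37 to -0.34, whereas a probe designed against a separate Ensembl transcript of the gene (342 in WT and 372 in ASK1KO iBAT) had 0.06. The mean over all 4 was -0.25 in iBAT and -0.04 in eWAT.

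Among the targets of AKT, *Foxo1*, the forkhead factor that insulin signalling inhibits, was above WT in both tissues at both of its probes. The first read 7312 in WT and 8684 in ASK1KO iBAT and 10088 in WT and 12633 in ASK1KO eWAT, and the second 4676 and 5320 in iBAT and 6756 and 8587 in eWAT. Averaged over the probes, iBAT had a log2 ratio of 0.16 and eWAT one of 0.42, where 96.8% of genes had a lower one. Both signs were kept in the 7 alternatives that could change them (0.07 to 0.29 in iBAT and 0.34 to 0.45 in eWAT).

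*Tbc1d4* read 2629 in WT and 2795 in ASK1KO iBAT and 4163 in WT and 4383 in ASK1KO eWAT at 1 probe, and 746 and 743 in iBAT and 999 and 1166 in eWAT at the other, which is the one printed above. Its mean log2 ratio was -0.02 in iBAT, with a sign that turned in 4 alternatives, and 0.24 in eWAT. *Pde3b* had a bright probe, 12649 in WT and 11576 in ASK1KO iBAT and 24927 in WT and 27237 in ASK1KO eWAT. Its second probe, designed against an Ensembl transcript, was dim, at 50.3 and 58.8 in iBAT and 132 and 155 in eWAT. The 2 probes disagreed in iBAT, with -0.19 and 0.16, and lay on the same side in eWAT, with 0.22 and 0.32.

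Counted together, 1 of the 10 genes was at least 2-fold apart between the genotypes in iBAT, *Irs2*, where 1.85% of the 14377 genes measured were, and 0 of the 10 in eWAT, where 1.15% of 15377 genes were. In iBAT 9 of the 10 log2 ratios were below 0, with signs that turned under some scalings for *Akt1*, *Pik3ca*, *Tbc1d4* and *Pde3b*; their median was -0.08 and that of all genes -0.07. In eWAT 6 were above 0 and 4 below, none of which turned under any alternative, and their median was 0.17 against 0.02 for all genes. In the fit of genotype and tissue over the 4 arrays with limma, 0 of 14057 genes passed an adjusted p of 0.05 for genotype (0.00%; 770 had an unadjusted p under 0.05), and the adjusted p of the 10 genes lay between 0.880 and 0.998. The lowest was that of *Irs1*, with a log2 difference of -0.45 ± 0.18 (SE, 4 arrays), lower in ASK1KO in 2 of 2 tissues. Its limma p was 0.0416 before adjustment. This fit takes the genotype difference as equal in the 2 tissues, which *Irs2*, with its opposite signs, was not on these arrays.

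**Figure D2:**
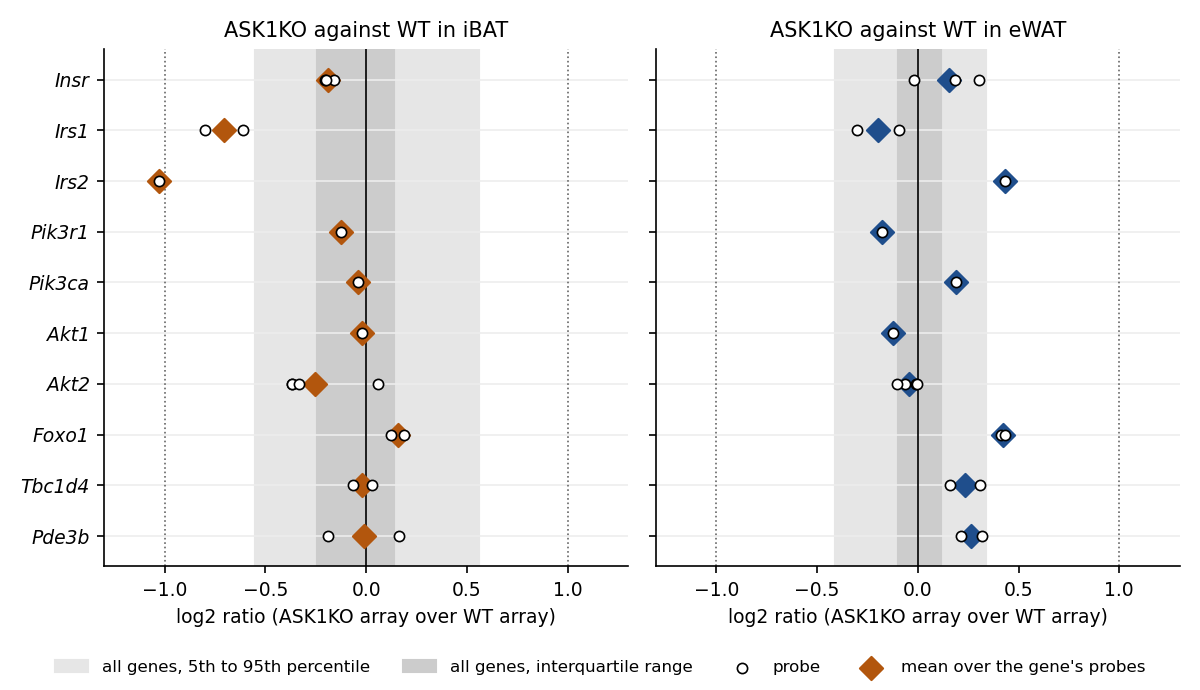
Log2 ratio of the ASK1KO array to the WT array (x axis) for the 10 genes in iBAT (left) and eWAT (right); white circles are single probes, diamonds the mean over a gene's probes, grey bands the 5th to 95th percentile and the interquartile range of all genes, and dotted lines mark 2-fold. *Irs2* (-1.03) and *Irs1* (-0.70) lie below the outer band in iBAT, and *Irs2* (0.43) and *Foxo1* (0.42) above it in eWAT; of the signs in iBAT, those of *Akt1*, *Pik3ca*, *Tbc1d4* and *Pde3b* turned under some scalings.

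**Figure D3:**
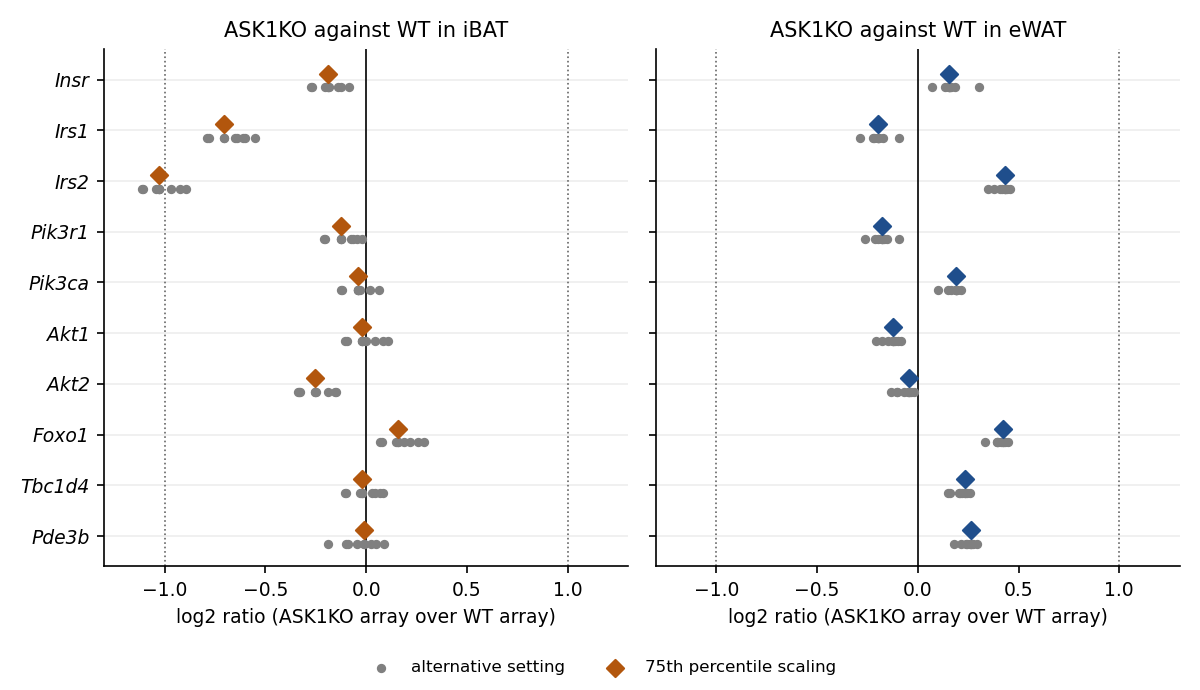
Log2 ratio of the ASK1KO array to the WT array (x axis) for each gene in iBAT (left) and eWAT (right); diamonds are the values with 75th percentile scaling and grey points the 9 alternative settings, with dotted lines at 2-fold. *Irs2* in iBAT spans -1.11 to -0.90 across the 2-fold line, while the points of *Akt1*, *Pik3ca*, *Tbc1d4* and *Pde3b* in iBAT fall on both sides of 0.

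The tissue is bulk fat, in which fewer cells of a type and less RNA per cell cannot be told apart. In iBAT all 13 macrophage markers measured on both arrays were higher in ASK1KO than in WT (median log2 ratio 0.72, summed levels 22.0 in WT and 30.6 in ASK1KO), 10 of 12 brown adipocyte markers were lower (median -0.23), and 5 of 9 adipocyte markers were lower (median -0.25). In eWAT the hepatocyte markers summed to 14.1 in WT and 0.740 in ASK1KO, with 9 of 9 and 4 of 9 of them detected, and the macrophage sums were 120 and 116. The part of these cells in the ratios of the 10 genes was not tested.

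Between the tissues, *Irs2* and *Akt2* were higher in iBAT than in eWAT and *Pik3r1* and *Irs1* were lower, and these 4 genes passed the test in the fit of all 4 arrays, as did 55.5% of all genes. *Irs2* was 3.86-fold higher in iBAT in WT mice and 1.40-fold higher in ASK1KO mice. *Pik3r1* was 2.24-fold lower in iBAT in WT mice and 2.16-fold lower in ASK1KO mice. The receptor gene, *Pik3ca*, *Akt1*, *Foxo1*, *Tbc1d4* and *Pde3b* did not pass with 75th percentile scaling. Without scaling all 6 passed as lower in iBAT (limma adjusted p from 0.00152 to 0.0143), and *Pde3b* passed also with quantile normalization (0.0161) and with the percentile over detected probes (0.0338). All of these values are relative to the scaling: iBAT arrays were dimmer, and without scaling the median of all genes shifted by -0.92 in WT and -0.77 in ASK1KO, which turned the tissue sign of *Akt1*, *Akt2*, *Foxo1* and *Tbc1d4* in both genotypes and of *Irs2* in ASK1KO (-0.28).

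*Pik3r1* showed the most even difference, with scaled log2 levels of 1.25 and 1.12 in WT and ASK1KO iBAT and 2.41 and 2.24 in WT and ASK1KO eWAT. The fitted difference was -1.14 ± 0.15 (SE, 4 arrays, limma adjusted p = 0.00103), and the iBAT array lay below the eWAT array in both genotypes under every alternative, although the fit without moderation of the variance did not call it (adjusted p of 0.204). *Akt2* had levels of 4.10 and 3.85 in iBAT against 3.35 and 3.31 in eWAT, a fitted difference of 0.65 ± 0.15 (limma adjusted p = 0.0119). All 4 *Akt2* probes were higher in iBAT in both genotypes with 75th percentile scaling, the probe for the separate transcript by the least, 0.30 in WT and 0.36 in ASK1KO. Without scaling the fitted *Akt2* difference was -0.20 and did not pass (adjusted p of 0.201, in a range over the alternatives of 0.00336 to 0.242), nor did *Akt2* pass with no filter on dim probes (0.0546) or without moderation (0.242).

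*Irs2* levels of 5.08 and 4.06 in iBAT lay above those of 3.14 and 3.57 in eWAT with no overlap of the tissues. The fitted difference was 1.22 ± 0.33 (SE, 4 arrays, limma adjusted p = 0.0200), made of 1.95 in WT and 0.49 in ASK1KO. In WT, 95.1% of genes had a lower iBAT to eWAT ratio than *Irs2*, and in ASK1KO 73.1% had. Its adjusted p over the alternatives ran from 2.87e-06 to 0.436, and it did not pass without scaling (0.353), with no filter on dim probes (0.0588) or without moderation of the variance (0.436). The lowest values came with the series table and with median centring, where the fit gave every gene the same variance. *Irs1* levels of 1.19 and 0.49 in iBAT lay below those of 1.48 and 1.28 in eWAT, a fitted difference of -0.54 ± 0.18 (limma adjusted p = 0.0412, from 0.00173 to 0.381 over the alternatives, with no pass at 0.117 where dim probes were kept or at 0.381 without moderation). *Irs1* was thus lower in iBAT by 0.28 in WT and by 0.79 in ASK1KO.

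The other 6 genes had smaller or less even differences. *Pde3b* was at -0.27 in WT and -0.55 in ASK1KO (limma adjusted p = 0.0657), *Insr* at -0.10 and -0.44, and *Pik3ca* at -0.21 and -0.44, each lower in iBAT in both genotypes under every alternative. *Foxo1*, at 0.42 and 0.16, and *Tbc1d4*, at 0.38 and 0.12, were above 0 with scaling and below it without. *Akt1* was at 0.07 and 0.17, and its sign turned in 4 alternatives in WT and in 1, without scaling, in ASK1KO. The 2 iBAT levels of *Akt1* (4.47 and 4.45), *Pde3b* (1.16 and 1.15), *Tbc1d4* (1.98 and 1.96) and *Pik3ca* (-0.39 and -0.43), and the 2 eWAT levels of *Akt2*, differed by less than the median SD between repeated spots.

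With limma, 4 of the 10 genes passed for tissue where 55.5% of the 14057 genes did, and 5 of the 10 had an unadjusted p under 0.05, as had 8570 of the 14057. Over the alternatives the count of the 10 ran from 0 without moderation, and 1 where dim probes were kept, to 8 without scaling, where 10864 of all genes passed. At least 2-fold apart were 2 of the 10 in WT, where 29.8% of genes were, and 1 of the 10 in ASK1KO, *Pik3r1*, where 25.0% were. The fit has 1 residual degree of freedom, which is the difference between the genotypes in the tissue effect, so its error is large for a gene such as *Irs2* and small for *Pik3r1*. The moderated error of *Pik3r1* is mostly that of the prior shared by all genes. Muscle markers were at a median log2 ratio of 8.92 and macrophage markers at -2.98 for iBAT over eWAT in WT (8.78 and -2.14 in ASK1KO), and the part of these cells in the tissue differences was not tested.

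**Figure D4:**
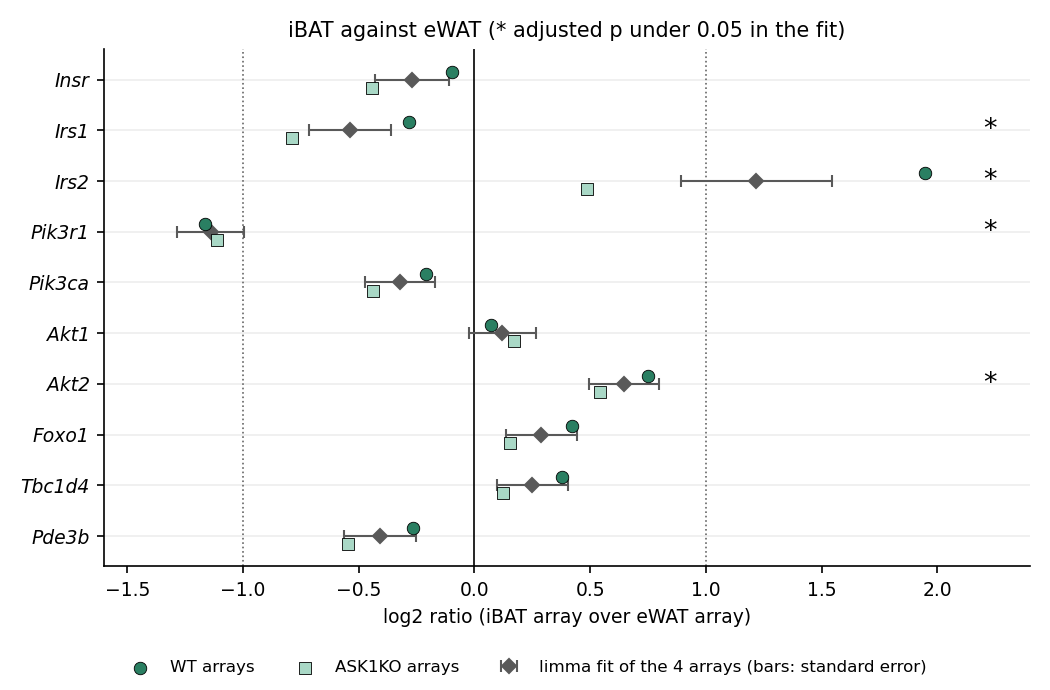
Log2 ratio of the iBAT array to the eWAT array (x axis) in WT (circles) and ASK1KO (squares) for the 10 genes, with the limma estimate over the 4 arrays (diamonds, bars are the standard error) and stars where its adjusted p was under 0.05. *Irs2* stands at 1.95 in WT and 0.49 in ASK1KO and *Pik3r1* at -1.16 and -1.11; without scaling the ratios of *Akt1*, *Akt2*, *Foxo1* and *Tbc1d4*, and of *Irs2* in ASK1KO, turned below 0.

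The wider pathway was described with 12 lists of 152 genes that include the 10. In iBAT, 142 of them were measured, and 4 were at least 2-fold apart between the genotypes, *Irs2* among them, where 1.85% of all genes were. *Txnip*, an inhibitor of glucose uptake that glucose is known to induce, taken into the list of FOXO1 targets, was higher in ASK1KO (log2 ratio 1.38, mean of 2 probes), and was also above WT in eWAT (0.86). *Insrr*, which encodes the insulin receptor-related receptor, was dim in iBAT, at 28.2 in WT and 60.7 in ASK1KO (log2 ratio 1.05), with -0.34 in eWAT (245 and 182). *Trib1*, a pseudokinase of the Tribbles family, had -1.02 in iBAT, from -1.31 to -0.74 over its probes, and -0.24 in eWAT. Over the alternatives in iBAT *Txnip* remained past 2-fold (1.26 to 1.48), while *Insrr* (0.42 to 1.15) and *Trib1* (-1.11 to -0.86) went under it in some. In eWAT 149 genes were measured and 0 were 2-fold apart, where 1.15% of all genes were.

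Of the 12 lists, 9 had more genes below 0 than above it in ASK1KO iBAT, as had all genes, and the 4 with the lowest medians are given here. All 11 genes of a list of regulators of lipid synthesis and of SREBP processing were below 0 there, with a median of -0.28 (*Srebf1*, which insulin induces, at -0.56), and all 11 were below 0 also under each other scaling and background correction. This list, too, is not one of activators alone, since it includes *Insig1*, at -0.35. The glycogen branch had 9 of 10 below 0 and a median of -0.41, the list named antilipolysis 8 of 9 and -0.30, and docking proteins and adaptors 14 of 16 and -0.21; under those alternatives 8 to 9, 6 to 9 and 11 to 15 were below 0. The antilipolysis list mixes genes of both directions: those that carry out lipolysis, *Lipe* (hormone-sensitive lipase) at -0.30, *Pnpla2* at -0.13 and its activator *Abhd5* at -0.47, and those that restrain it, such as *G0s2* at -0.54 and *Plin1* at -0.32. The list of AKT kinases and their activators followed with 8 of 10 and -0.17. Beside these, the adipocyte markers had a median of -0.25, the brown adipocyte markers one of -0.23 and the macrophage markers one of 0.72 in the same comparison, and their part in the lists was not tested. Of all genes in iBAT, 40.5% were above 0. These are counts over genes of 1 pair of arrays, with no test.

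**Figure D5:**
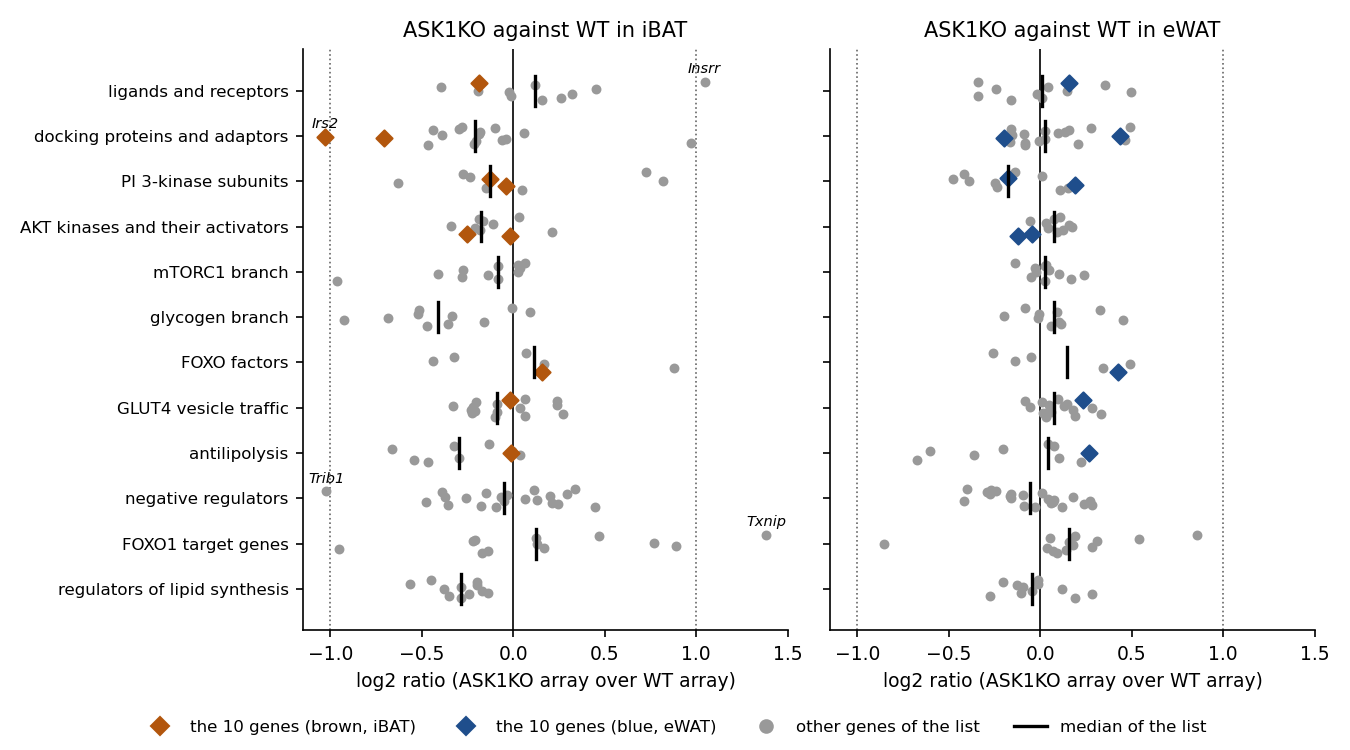
Log2 ratio of the ASK1KO array to the WT array (x axis) for the genes of 12 insulin pathway lists in iBAT (left) and eWAT (right); diamonds are the 10 genes, grey points the others, black bars the medians and dotted lines 2-fold, with names on genes past it. In iBAT all 11 genes of the list of regulators of lipid synthesis, which is not one of activators alone, lie below 0 (median -0.28). In eWAT no gene passes 2-fold. Medians of other lists close to 0 change sign with the scaling.

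In eWAT the medians of the 12 lists ran from -0.18 for the PI 3-kinase subunits, with 7 of 11 below 0 in ASK1KO, to 0.16 for the FOXO1 target genes. Of the FOXO1 targets, 12 of 13 were above 0 in eWAT (9 to 12 under the other scalings and background correction) and 7 of 12 in iBAT, with *Pck1*, the gluconeogenic and glyceroneogenic enzyme, at 0.54 in eWAT. Of the GLUT4 traffic genes, 14 of 16 were above 0 (8 to 14 under those alternatives), with a median of 0.08 that turned without scaling (-0.01). Below 0 were 8 of 11 regulators of lipid synthesis (6 to 8 under those alternatives). Hepatocyte markers had a median of -4.15, muscle markers one of -0.89 and brown adipocyte markers one of -0.84 in the same comparison, and their part in the lists was not tested. *Slc2a4*, which encodes GLUT4 itself, was at 0.13 in eWAT and -0.33 in iBAT. Of all genes in eWAT, 54.1% were above 0.

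Relatives of the 10 genes are given for the tissues, with signs that held in WT and in ASK1KO under every alternative for each gene named here as passing. *Pik3cb* and *Pik3cd*, which encode other class I catalytic subunits, had fitted differences for iBAT over eWAT of -1.96 and -2.02 (limma adjusted p = 0.000196 and 0.00131), and *Pik3r5* one of -2.26. With normexp background correction *Pik3cd* was nearer to 0, at -1.70 in WT and -0.70 in ASK1KO, and so was *Pik3r5*, at -1.32 and -0.93. *Pik3r2*, at -0.66, passed as well, and *Pik3r3*, at 0.10, did not. Of the 9 PI 3-kinase genes fitted, 5 passed, or 55.6% against 55.5% of all genes, and all 5 were lower in iBAT. Macrophage markers had median log2 ratios of -2.98 in WT and -2.14 in ASK1KO in the same comparison. The part of such cells in the PI 3-kinase differences was not tested. *Mtor*, the kinase of mTORC2 that completes AKT activation, was higher in iBAT by the fit (1.26), and *Pdpk1*, encoding the kinase PDK1, was at -0.26 and did not pass.

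Of the glycogen genes 8 of 10 passed higher in iBAT and 1 lower; those furthest apart were *Pygm*, muscle glycogen phosphorylase, at 4.68, *Gys2* at 2.36 and *Ppp1r3c* at 1.75, where the muscle markers also stood far apart. *Slc2a4* was higher in iBAT by 1.29 and *Pde4d*, another cAMP phosphodiesterase, by 3.81 at the 2 of its 4 probes detected on every array, while *Lipe*, at -0.41, did not pass (adjusted p = 0.0786). With dim probes kept, the ratio of *Pde4d* was 1.97 in place of 4.04 in WT and 1.72 in place of 3.57 in ASK1KO. Of the receptor list *Igf1* (-2.31), *Igfbp4* (-2.96) and *Igf1r* (-0.50) passed lower in iBAT. The 5 *Igf1* probes differed widely, with log2 ratios of iBAT to eWAT from -3.72 to -0.11 in WT and from -3.22 to 0.23 in ASK1KO. Negative regulators passed in both directions, 6 higher and 8 lower in iBAT: *Grb14*, an adaptor that inhibits the receptor, at 1.47 and *Trib1* at 1.91, against *Ptprf*, a receptor phosphatase, at -3.78, *Grb10* at -1.27 and *Ptpn1*, encoding PTP1B, at -0.59. With normexp background correction *Grb10* was nearer to 0, at -0.83 in WT and -0.48 in ASK1KO. The values of *Ptpn1* nearest to 0 over the alternatives were -0.22 in WT and -0.26 in ASK1KO. Over the 141 genes fitted, 43 passed higher and 38 lower, 57.4% in all, against 55.5% of all genes.

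Among the 140 other pathway genes measured on every array, the pattern nearest to that of *Irs2* over the 4 arrays was that of *Ppp1r3b*, a glycogen-targeting subunit of protein phosphatase 1, with a root mean square difference of 0.21 in centred log2 level. *Gsk3a* and *Ppp1r3d* followed, both at 0.24. With 75th percentile scaling all 3 were highest in WT iBAT, next in ASK1KO iBAT and lower in both eWAT pools. They had iBAT log2 ratios of ASK1KO to WT of -0.68, -0.47 and -0.52, and in eWAT, where *Irs2* had 0.43, of -0.02, 0.06 and -0.01.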

How the data were processed

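Total RNA of 4 pools, each of 3 mice, was hybridised to Agilent Whole Mouse Genome arrays of design 028005 (60-base probes, mm9 positions in the scanner output), 1 array per genotype and tissue, all on 1 slide. For each array the authors deposited the output of Agilent Feature Extraction 10.7.3.1, whose processed signal is a background-corrected intensity on a linear scale, not scaled between arrays. They also deposited a series table, whose signal was, in each column, the processed signal of that array divided by 1 constant that made its median 1.

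Control spots and outlier spots were left out (82 to 129 spots per array) and spots of 1 probe averaged. The log2 signal minus the log2 of the array's 75th percentile was used, and the probes of a gene that both arrays of a comparison measured well above background were averaged (28985 to 33389 of 55681 probes per array). No spot was saturated. Gene names were matched to the RefSeq gene table, which gave 22066 genes. With 1 array per group, a gene was counted as different where its arrays were at least 2-fold apart, with no test. Genotype and tissue were fitted together over the 4 arrays with limma 3.58.1 in R 4.3.3 and adjusted by the Benjamini-Hochberg method over 14057 genes. Each gene had 1 residual degree of freedom, and its variance was moderated with a prior estimated over all genes, worth 5.24 degrees of freedom. Standard errors and p-values thus rest more on that shared prior than on a gene's own arrays. The spread they measure is only that between these arrays. The scripts were tested on simulated data.

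The 10 genes, the 12 pathway lists and the 11 marker lists were chosen with earlier results of these data known. Genes outside the 10 were named where they were 2-fold apart between the genotypes, where they were among the 3 of a list with the largest tissue difference at an adjusted p under 0.05 (a selection of these is printed), or as relatives and regulators fixed by name. Also named were *Map3k5*, the 3 genes nearest in pattern to *Irs2*, and *Abhd5* and *Plin1* to describe the antilipolysis list. *Pik3cg*, *Prkcz*, *G6pc* and *Igfbp1* were named because no probe of theirs was well above background on every array. Alternatives were normexp background correction, quantile normalization, no scaling, the percentile over probes detected on all arrays, the series table, centring on the median, keeping dim probes or asking for detection on every array, taking only a gene's brightest probe, including unmatched gene names, a threshold of 1.5-fold and a fit without moderation. Promoter windows came from RefSeq on GRCm38.p6.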

Additional observations from a re-analysis of the deposited data

Results flagged for a closer look

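For 5 of the 10 genes the ratio of ASK1KO to WT was below 0 in the 1 array pair of iBAT and above 0 in that of eWAT, as for 32.6% of the 14059 genes measured in both. For 2 of the 5, *Insr* and *Irs2*, both ratios exceeded the median SD between repeated spots, which does not cover the spread between pools. *Insr* had a log2 ratio of ASK1KO to WT of -0.189 in iBAT and 0.157 in eWAT, and *Irs2* one of -1.03 in iBAT and 0.434 in eWAT; 1 of the 3 *Insr* probes was at -0.02 in eWAT. The other 3 had iBAT ratios close to 0, with signs that turned under some scalings: *Pik3ca* -0.0411 in iBAT and 0.188 in eWAT, *Tbc1d4* -0.0202 and 0.236, and *Pde3b* -0.013 and 0.267. The difference between the tissues was not tested, because the 4 arrays leave no degree of freedom for it. Each tissue was 1 pair of pools.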

How the results depend on the processing

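With 1 array per group no replicate could be left out, and since all 4 arrays were on 1 slide no slide block could be fitted. Whether the iBAT and eWAT pools of a genotype came from the same mice was not stated, so pairing by mouse is not known. Of the single values of the 10 genes under the alternatives, 96 could not differ, since every probe was detected on every array and 4 genes have 1 probe, 149 moved by less than the error of repeated spots and 115 by more. Genes at least 2-fold apart in iBAT between the genotypes numbered 266, and 106 with normexp, 1127 with no filter on dim probes and 1262 at 1.5-fold; in eWAT they numbered 177, and 60, 1036 and 622 in that order and 114 with probes detected on all 4 arrays. Between the tissues there were 4243 in WT, with 9241 for no filter and 7115 at 1.5-fold, and 3622 in ASK1KO, with 5794 for no scaling, 5523 for no filter and 6450 at 1.5-fold. Of the 10 genes, the 1 in iBAT became 0 with quantile normalization, 0 where nothing was scaled, 0 where the percentile was taken over detected probes and 2 at 1.5-fold. The 2 between tissues in WT became 6 without scaling, and at 1.5-fold *Akt2*, 1.68-fold apart, was added to them. The 1 between tissues in ASK1KO became 5 without scaling and 2 at 1.5-fold. Their median ratio in iBAT, -0.08, ranged over the alternatives from -0.17 with the series table to 0.0196 where the percentile was taken over detected probes (-0.16 with median centring and with the brightest probes, -0.04 with quantile normalization, -0.02 without scaling); in eWAT, 0.17, it was 0.0853 without scaling. The median between tissues in WT, -0.01, was -0.15 with quantile normalization, -0.93 without scaling and -0.15 where the percentile was taken over detected probes, and above 0 with the series table (0.02) and the brightest probes (0.01); in ASK1KO, -0.16, it was -0.93 without scaling, -0.24 with median centring and -0.23 with the series table. The fit called 7799 genes for tissue and 0 without moderation, and for genotype 0 genes, with 24 for normexp, 139 for median centring and 128 for the series table, none of them among the 10 genes. With median centring and with the series table the prior on the variance had infinite weight, so that every gene was given the same variance. Of the 10, 4 were called for tissue, with 8 without scaling, 1 with no filter and 0 without moderation. The fitted tissue difference turned sign without scaling for *Akt1* (to -0.72), *Akt2* (-0.20), *Foxo1* (-0.56) and *Tbc1d4* (-0.60), and *Akt1*, *Foxo1* and *Tbc1d4* passed in that direction; with quantile normalization that of *Akt1* turned to -0.10 and did not pass. Apart from the construction of the thresholds and filters, the cause of these changes was not tested. Signal over background did not limit the 10 genes, but the second *Pde3b* probe, at 50.3 to 155, is near the dim end.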

Other observations

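Some pathway genes were dim in iBAT. *Pik3cg*, the catalytic subunit of the PI 3-kinase that G protein-coupled receptors activate, was not well above background on either iBAT array and was higher in eWAT, at its brighter probe at least 5.93-fold in WT and 3.99-fold in ASK1KO, with smaller bounds at the other probe. Each bound sets the scaled eWAT signal over that of the same probe in iBAT, or over the lowest iBAT signal well above background where the probe read less than that. *Prkcz*, an atypical protein kinase C, was higher in eWAT than in iBAT in WT at 2 of its 3 probes, at least 6.39-fold (unscaled signals of 238 and 17.2) and at least 2.71-fold (117 and 22.8), and the third gave no bound. *G6pc*, the glucose 6-phosphatase of gluconeogenic tissues, was at least 3.42-fold higher in eWAT than in iBAT in WT and about level in ASK1KO (log2 ratio of iBAT to eWAT 0.06). The WT eWAT array also held the highest hepatocyte marker sum, 14.1, and the part of such cells was not tested. *Igfbp1* was not well above background on any array.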
